A study of Mus musculus with 16 samples.

Results

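The 10 genes described here belong to the Wnt/β-catenin pathway and were taken by name. They are the ligand Wnt3, the receptors Fzd7 and Lgr4, the feedback regulators Axin2, Rnf43, Znrf3 and Nkd1, and the transcription factors Tcf7l2, Sp5 and Sox9. They are 10 of 54643 gene rows found in the 3 count tables of the series, and all 10 were present and passed the low-count filter in each table. Gene expression was measured by RNA-seq of mouse small intestinal epithelium in 16 libraries, and the values are numbers of reads counted per gene. The question put to every gene is how its mRNA level changed when Cul4b, the X-linked gene of a cullin that assembles ubiquitin ligases, was deleted.

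Crypts, the epithelial pockets at the base of the villi, were isolated from 4 KO IEC and 4 WT mice on the C57BL/6 background. KO IEC animals carried pVillin-Cre and the floxed allele Cul4b fn/Y, so that Cre was driven by a promoter active throughout the intestinal epithelium, and WT animals carried the floxed allele without Cre. Organoids, epithelial cultures grown from crypts, were sequenced from KO IEC (2 libraries) and WT (2 libraries). A second organoid pair was KO CAG (2 libraries) against WT (2 libraries), in which CAG-CreERT2, a ubiquitously expressed and tamoxifen-dependent Cre, was activated in culture with 10 µM 4-OHT. Whether the WT organoids of the second pair carried CreERT2 or received 4-OHT, and which culture medium the sequenced organoids were kept in, are not stated in the sources used here. The mice of most experiments were 8 to 16 weeks old. The paper describes the libraries of a group as 2 to 4 biological replicates. It does not state whether the organoid libraries came from separate animals, so that p-values measure only the spread between these libraries. Levels are given as CPM, the counts of a gene relative to the TMM-scaled total of its library, and called means an adjusted p under 0.05 in the quasi-likelihood test of edgeR, adjusted over all genes tested.

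Total counts ran from 9311734 to 13479974 in the crypts, from 15006730 to 16881395 in the KO IEC experiment and from 7348191 to 10462275 in the KO CAG experiment. Cul4b itself lay at 31.6 to 38.2 CPM in WT crypts and at 0.846 to 2.20 CPM in KO crypts, and its log2 fold changes in the organoids were -5.50 (KO IEC) and -4.02 (KO CAG). Epcam, the defining epithelial marker, exceeded 1000 CPM in all libraries. Markers of stroma, leukocytes and endothelium summed to at most 1.63 CPM per list in the organoids. In the crypts the leukocyte markers summed to 18.8 to 46.7 CPM (WT) and 20.5 to 91.0 CPM (KO).

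Wnt proteins bind Frizzled receptors together with LRP co-receptors at the crypt base, which halts the destruction complex that otherwise degrades β-catenin. Stabilized β-catenin enters the nucleus and joins TCF factors to switch on target genes, among them genes whose products dampen the signal. Axin2 is a scaffold of the destruction complex, Rnf43 and Znrf3 are membrane ubiquitin ligases that remove Frizzled receptors, and Nkd1 is a cytoplasmic inhibitor that binds Dishevelled. R-spondins acting through Lgr4 and its relatives counteract Rnf43 and Znrf3, and this pathway maintains intestinal stem cells and Paneth cells.

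The members lie at the following places in the tables, whose positions are identical to GENCODE M21 on GRCm38 for 9 of the 10. Chromosome 11 holds 5 of the 10, beside 7.96% to 8.21% of all genes tested, with Znrf3 at chr11:5276324-5444847 on the minus strand, Rnf43 at chr11:87662722-87735539, Wnt3 at chr11:103774150-103817957, Axin2 at chr11:108920349-108950783 and Sox9 at chr11:112782224-112787760, all but the first on the plus strand. The others, all on the plus strand, are Fzd7 at chr1:59482424-59486955, Sp5 at chr2:70474923-70477729, Lgr4 at chr2:109917647-110014257, Nkd1 at chr8:88521354-88594884 and Tcf7l2 at chr19:55741810-55933654, the start of which differs from GENCODE. Their coding transcripts have from 1 exon (Fzd7) to 18 exons (Lgr4). Axin2 overlaps the antisense gene Gm11670, whose counts were at most 1.30% of those of Axin2, and Rnf43 holds 1110028F11Rik, whose counts were at most 2.66% of those of Rnf43. Strand use in counting is not stated, so overlapping reads of Axin2 and Gm11670 cannot be assigned by strand. 1110028F11Rik is an intronic gene on the same strand as Rnf43, so strand use does not bear on that pair.

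Promoter windows of RefSeq on GRCm38.p6 were found for 8 of the 10 genes. In the 250 bases before the start, CTTTGA and CTTTGT, the core letters recognised by TCF/LEF factors, were searched on both strands. At least 1 such match occurs in 27.6% of all 32851 windows, and at least 4 occur in 0.0944%. Sp5 and Nkd1 are shown because both rose in KO CAG organoids, and Fzd7 because it fell there, with matches in capitals (ACAAAG is CTTTGT on the other strand). The windows are chr2:70474673-70474922 for Sp5, chr8:88527383-88527632 for Nkd1 and chr1:59481897-59482146 for Fzd7, all on the plus strand.
Sp5: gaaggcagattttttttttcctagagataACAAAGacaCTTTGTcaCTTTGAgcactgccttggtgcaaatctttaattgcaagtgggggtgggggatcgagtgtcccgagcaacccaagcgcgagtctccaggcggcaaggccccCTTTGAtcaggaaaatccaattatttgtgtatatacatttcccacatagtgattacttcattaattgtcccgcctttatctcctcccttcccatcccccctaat
Nkd1: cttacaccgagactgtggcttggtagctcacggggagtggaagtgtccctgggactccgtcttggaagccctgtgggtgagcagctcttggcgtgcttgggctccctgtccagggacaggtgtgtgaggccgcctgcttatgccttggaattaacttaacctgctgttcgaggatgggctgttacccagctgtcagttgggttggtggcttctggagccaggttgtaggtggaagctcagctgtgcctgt
Fzd7: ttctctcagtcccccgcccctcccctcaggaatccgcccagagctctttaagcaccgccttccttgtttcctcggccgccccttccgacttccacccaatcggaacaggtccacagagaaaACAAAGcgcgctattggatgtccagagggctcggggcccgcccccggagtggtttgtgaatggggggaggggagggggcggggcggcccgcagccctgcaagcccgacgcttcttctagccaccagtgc
The Sp5 window held 4 matches (2 of CTTTGA and 2 of CTTTGT), whose first bases lie 221, 212, 204 and 104 bases before the start. The Fzd7 window held 1 match at 129 bases before the start, and the Nkd1 window held none. The RefSeq start behind the Nkd1 window lies within the gene as the tables place it. Axin2, Lgr4, Rnf43 and Wnt3 had no match in their windows, and Tcf7l2 had 1 match in the second of its windows only. A match describes letters in this window and says nothing of binding.

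In WT crypts the members spanned a wide range of mRNA levels, which were compared between genes as TPM (counts per gene length, relative to the sum over all genes). Lgr4 stood highest at 91.2 ± 18.7 TPM (SD, n = 4), followed by Axin2 at 50.3 ± 6.54, Sox9 at 34.3 ± 9.17 and Rnf43 at 25.0 ± 2.45 TPM. Fzd7 (13.1 ± 1.13 TPM), Tcf7l2 (12.3 ± 2.4 TPM) and Sp5 (10.3 ± 1.94 TPM) came next. Wnt3, which Paneth cells make, lay at 6.92 ± 2.45 TPM, Znrf3 at 5.29 ± 0.894 TPM and Nkd1 lowest at 1.88 ± 0.501 TPM. Of neighbours in this order, Lgr4 and Axin2, Rnf43 and Fzd7, and Znrf3 and Nkd1 did not overlap between libraries, whereas the other neighbours did.

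WT organoids showed a similar ladder of levels. In the WT libraries of the KO IEC experiment Lgr4 (78.1 TPM) and Axin2 (68.1 TPM) were again highest and Nkd1 (0.885 TPM) lowest, and only Sox9 (46.3 TPM) and Fzd7 (42.9 TPM) overlapped among neighbours. In those of the KO CAG experiment Axin2 (114 TPM) lay above Lgr4 (92.2 TPM), and only Sp5 (17.3 TPM) and Tcf7l2 (16.9 TPM) overlapped. Fzd7 lay at 13.1 TPM in WT crypts and at 42.9 and 53.8 TPM in the WT organoids. Levels were not tested across experiments, since the preparation of the libraries and the culture cannot be told apart from the experiment.

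**Figure D1:**
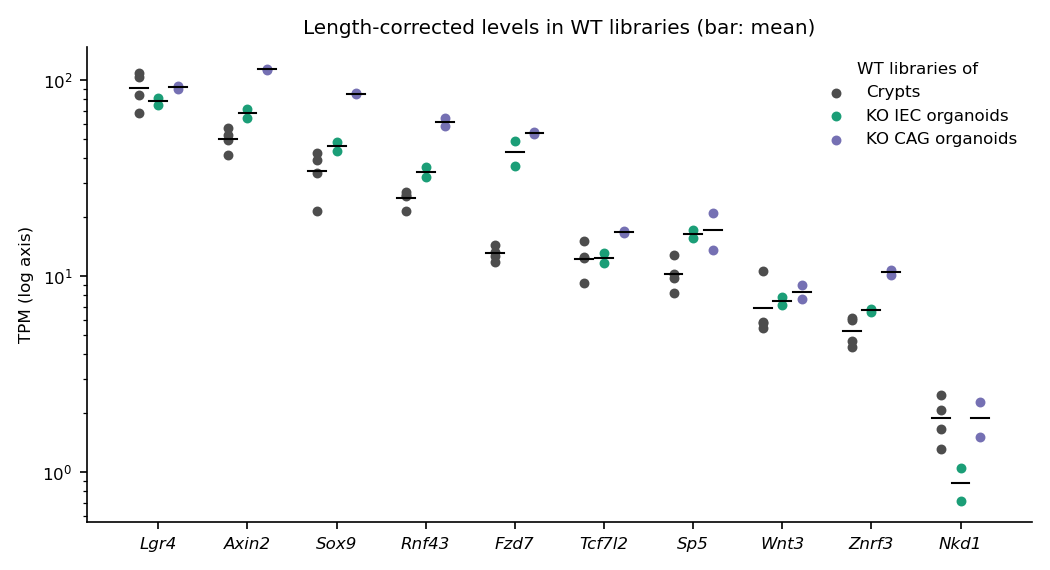
WT mRNA levels of the 10 genes in TPM (log axis) in the crypts, the KO IEC experiment and the KO CAG experiment, with 1 point per WT library and a bar at the mean. Lgr4, Axin2 and Sox9 form the upper end in each experiment and Nkd1 the lower end.

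In the crypts none of the 10 genes was called changed, and KO and WT libraries overlapped for all 10. Axin2, the scaffold commonly used as a readout of Wnt signalling, had the smallest p of the group. It lay at 133, 117, 116 and 105 CPM in WT replicates 1 to 4 and at 98.2, 111, 77.2 and 85.8 CPM in KO replicates 1 to 4. The KO values were lower apart from replicate 2, which lay above the lowest WT library. The log2 fold change was -0.34 ± 0.13 (SE, n = 4 against 4), with an unadjusted p of 0.0253, an adjusted p of 0.108 by edgeR and an exact two-sided permutation p of 0.0571, where 0.0286 is the smallest that 4 against 4 allows. Across all 13427 genes tested in the crypts, 4.3% were called higher and 2.66% lower, 8.7% had all KO libraries above all WT libraries and 8.79% had them below, and 14.6% were lower at an unadjusted p under 0.05. DESeq2 called 0 of the 10.

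The remaining feedback regulators gave no common direction in the crypts. Rnf43 lay at 64.4 to 74.4 CPM in WT and 54.0 to 71.2 CPM in KO (log2 fold change -0.16, 95% interval -0.39 to 0.06, adjusted p by edgeR 0.287). Znrf3 was level, at 15.5 to 19.9 CPM in WT and 14.1 to 25.2 CPM in KO, with a log2 fold change of 0.02 (interval -0.42 to 0.46, adjusted p by edgeR 0.953). Nkd1 had few counts, with 26 to 53 per WT library and 16, 41, 3 and 50 in KO replicates 1 to 4. These are 2.45 to 4.75 CPM against 1.69, 3.13, 0.318 and 4.6 CPM, so KO replicates 1 and 3 lay below the WT range and replicates 2 and 4 within it. Its log2 fold change was -0.57 with an interval of -1.80 to 0.66, a range that holds both a fall and a rise.

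The receptors and the ligand were not called in the crypts either. Lgr4 ranged from 183 to 270.2 CPM in WT and from 168 to 207 CPM in KO (log2 fold change -0.26, adjusted p by edgeR 0.222). Fzd7, a Frizzled receptor of intestinal stem cells, ranged from 24.2 to 26.8 CPM in WT and from 21.0 to 32.03 CPM in KO, with a log2 fold change of 0.0030 and an interval of -0.31 to 0.31. Wnt3 lay at 7.52, 6.79, 13.8 and 8.28 CPM in WT replicates 1 to 4 and at 8.98, 5.73, 2.55 and 6.53 CPM in KO replicates 1 to 4. KO replicate 3 was the lowest Wnt3 library and WT replicate 3 the highest, and the log2 fold change was -0.61 ± 0.36 (SE, adjusted p by edgeR 0.263).

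The summed Paneth markers, which include Lyz1 and defensins, also varied between crypt libraries. They lay at 13101, 10589, 19970.1 and 19532 CPM in WT replicates 1 to 4 and at 12985, 8069, 2059 and 20382 CPM in KO replicates 1 to 4, so the library lowest in Wnt3 was also lowest in Paneth markers. KO replicate 4 went the other way, with the highest Paneth sum of the 8 libraries and Wnt3 at 6.53 CPM, below all WT libraries. In KO replicate 3 the leukocyte sum was the highest of the crypts, at 91.0 CPM. In bulk samples fewer cells of a type and less RNA per cell cannot be told apart, and the part of the Paneth content in the Wnt3 values was not tested.

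Among the transcription factors, Sox9, which marks crypt progenitors and Paneth cells, lay at 41.0 to 73.9 CPM in WT and 33.2 to 61.8 CPM in KO crypts (log2 fold change -0.39, interval -0.92 to 0.14). Sp5, a zinc-finger repressor that is itself a Wnt target, lay at 7.28 to 11.4 CPM in WT and 7.40 to 15.7 CPM in KO (0.30, interval -0.22 to 0.83). Tcf7l2, the TCF factor that binds β-catenin in this epithelium, lay at 36.9 to 55.4 CPM in WT and 40.1 to 61.1 CPM in KO (0.13, interval -0.21 to 0.48). Of the 10 log2 fold changes in the crypts, 6 were below 0 and 4 above, with a median of -0.21 beside -0.01 over all genes tested.

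The crypt libraries also differed in mitochondrial ribosomal RNA, which reached 2840.2 and 2873 CPM in WT replicates 2 and 3, stood at 834 CPM (WT) and 1078 CPM (KO) in the libraries of replicate 4, and lay between 18.9 and 25.2 CPM in the remaining 4. Within libraries of like level, log2 differences of Axin2 were -0.49 (WT replicate 1 against KO replicates 1 to 3) and -0.29 (WT replicate 4 against KO replicate 4). Those of Wnt3 were -0.57 and -0.34, and those of Rnf43 were -0.19 and -0.26. Nkd1 (-1.996 and 0.41), Sp5 (-0.06 and 0.25), Fzd7 (0.06 and -0.22), Znrf3 (0.28 and -0.17) and Tcf7l2 (-0.06 and 0.12) differed in sign between the classes.

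**Figure D2:**
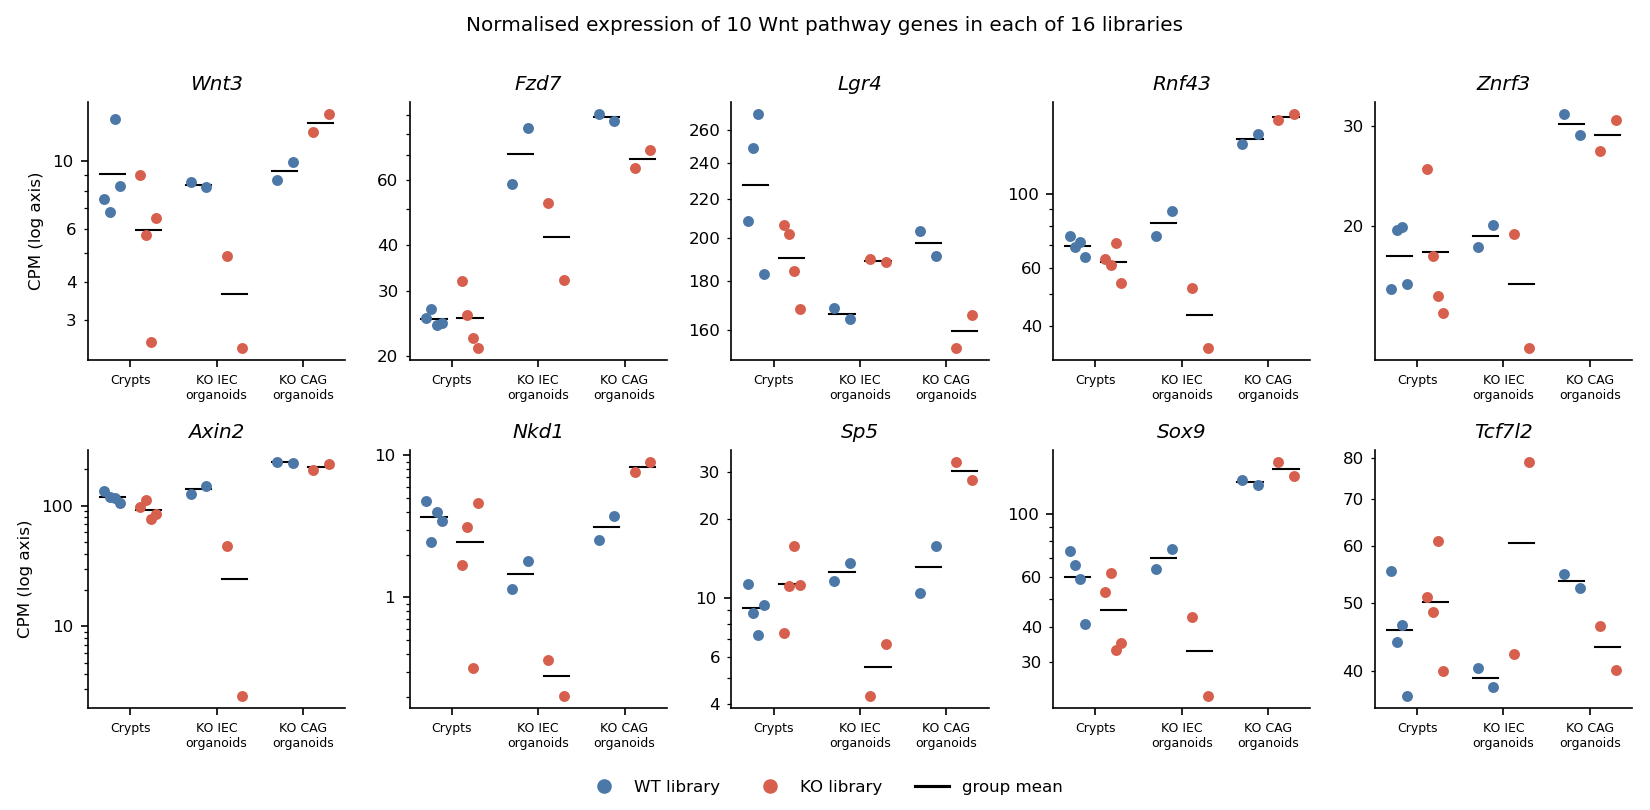
Level of each of the 10 genes in CPM (log axis) in every library, WT in blue and KO in red, with a bar at the group mean, for the crypts (4 against 4), the KO IEC organoids (2 against 2) and the KO CAG organoids (2 against 2). The crypt groups overlap in all panels, Axin2 reaches 2.63 CPM in 1 KO IEC organoid library, and Sp5 and Nkd1 stand higher in KO than in WT in the KO CAG organoids.

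In the KO IEC organoids Axin2 differed most between the 2 KO libraries. It lay at 126 and 147 CPM in WT (2182 and 2216 counts), at 46.6 CPM in KO replicate 1 (774 counts) and at 2.63 CPM in KO replicate 2 (39 counts). Both KO libraries were below both WT libraries, and KO replicate 2 lay far under KO replicate 1. The log2 fold change was -2.46 ± 1.17 (SE, n = 2 against 2, interval -5.49 to 0.56) with an adjusted p of 0.856 by edgeR. With 2 against 2 the exact permutation test cannot go below 0.333.

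The other inhibitors gave lower values in KO IEC organoids without passing the test. Nkd1 had 20 and 27 counts in WT and 6 and 3 counts in KO, a counting ratio of 0.198 with a 95% interval of 0.0852 to 0.408 that covers counting error only. Rnf43 lay at 74.9 and 88.5 CPM in WT and at 52.2 and 34.4 CPM in KO (log2 fold change -0.92 ± 0.25 SE, unadjusted p 0.0158 by edgeR). Znrf3, its paralogue, overlapped between groups, at 18.4 and 20.04 CPM in WT and 19.4 and 12.2 CPM in KO (-0.28).

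The transcription factors and the ligand were arranged likewise. Sp5 lay at 11.6 and 13.5 CPM in WT and at 4.28 and 6.75 CPM in KO IEC organoids (log2 fold change -1.19 ± 0.34 SE, unadjusted p 0.0173 by edgeR). Sox9 lay at 64.1 and 75.0 CPM in WT and at 43.1 and 22.8 CPM in KO (-1.07 ± 0.34 SE). Wnt3 lay at 8.52 and 8.23 CPM in WT and at 4.88 and 2.43 CPM in KO (-1.19 ± 0.42 SE). Tcf7l2 went the other way, at 40.4 and 38.0 CPM in WT and 42.3 and 78.9 CPM in KO (0.63 ± 0.33 SE). KO replicate 1 was thus close to WT for Tcf7l2 and KO replicate 2 well above it.

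The receptors did not move together in the KO IEC organoids. Fzd7 lay at 58.7 and 82.9 CPM in WT and at 52.0 and 32.1 CPM in KO (log2 fold change -0.75 ± 0.31 SE). Lgr4 lay at 169 and 164 CPM in WT and at 190 and 189 CPM in KO (0.18 ± 0.15 SE), so that its KO libraries were the higher ones and differed little from each other.

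Over the 10 genes the median log2 fold change in KO IEC organoids was -0.995, beside -0.01 over all genes tested. KO lay below WT without overlap for 7 of the 10, where 19.4% of all genes tested did so, and above WT for 2 (Lgr4 and Tcf7l2), where 19.4% did so as well. At an unadjusted p under 0.05, 5 of the 10 were lower (Nkd1, Rnf43, Sp5, Sox9 and Wnt3) and 0 higher, where 2.07% of all genes were lower and 2.6% higher. None of the 10 was called by edgeR or by DESeq2, and over all 13938 genes 0% were called higher and 0.00717% lower, which is Cul4b alone (-5.50, adjusted p 0.0311).

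Both KO libraries lay below both WT libraries for the 7 genes, with a median log2 ratio to the WT mean over the 10 genes of -0.667 in KO replicate 1 and -1.19 in KO replicate 2. KO replicate 2 was the lower KO library for 8 of the 10 genes, the exceptions being Sp5 and Tcf7l2. Nkd1 was the lowest of the 10 relative to WT in KO replicate 1 (log2 ratio -1.89, beside -1.55 for Axin2), and Axin2 in KO replicate 2 (-5.67, beside -2.59 for Nkd1). With KO replicate 2 as the lone KO library, whose spread was then taken from the WT pair, Axin2 stood at a log2 fold change of -5.69. Wnt3 (-1.78), Sox9 (-1.61), Rnf43 (-1.25) and Fzd7 (-1.14) were also lower in that fit, and Tcf7l2 (1.01) was higher. With KO replicate 1 as the lone KO library Axin2 stood at -1.55. Several marker sums also set KO replicate 2 apart. Stem cell markers summed to 2300.0 and 3446 CPM in WT, 1422 CPM in KO replicate 1 and 333 CPM in KO replicate 2. Olfm4 had the highest mean of these markers, 2290 CPM in WT and 516 CPM in KO, with 13.7 CPM in its lowest library. Both KO libraries were close to each other for Lgr5, at 70.0 to 77.8 CPM, and Smoc2 stayed at 248 CPM or more in every library. Goblet markers summed to 1681 and 1975 CPM in WT, 1734 CPM in KO replicate 1 and 6833 CPM in KO replicate 2, and cycling markers were 501 CPM in KO replicate 2 and 1194 to 1311 CPM in the other 3 libraries. Enterocyte markers summed to 5475 and 9496 CPM in WT, 3821 CPM in KO replicate 1 and 12054 CPM in KO replicate 2. Paneth markers were lower in both KO libraries, at 1465 CPM in replicate 1 and 1962 CPM in replicate 2, beside 2062 and 3584 CPM in WT. The part of these contents in the values of the members was not tested.

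**Figure D3:**
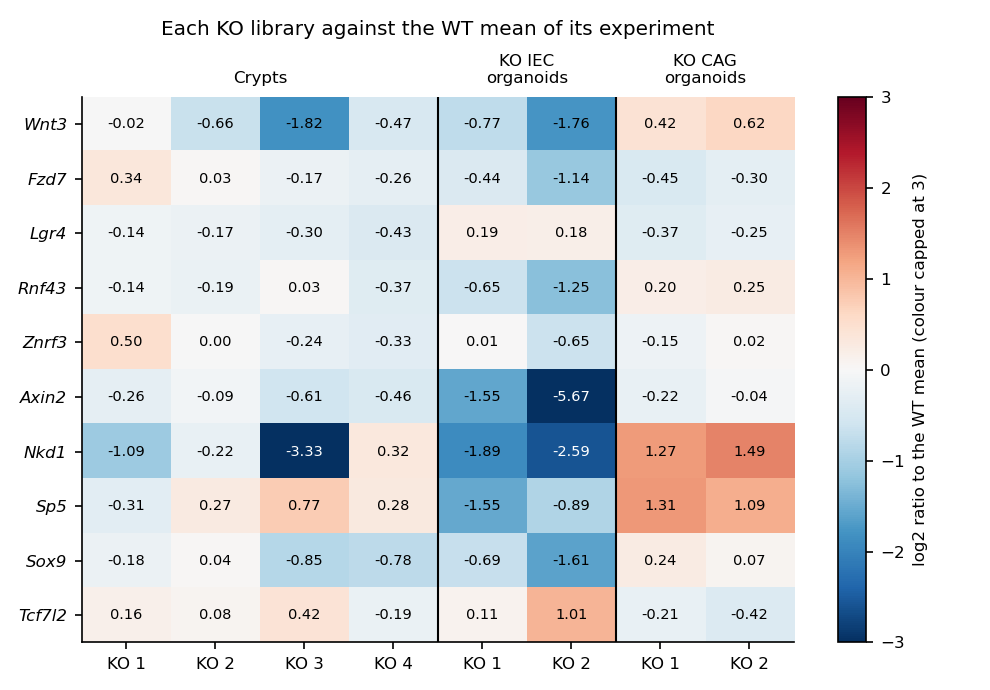
Heat map of the log2 ratio of each of the 8 KO libraries (columns) to the mean of the WT libraries of its experiment, for the 10 genes (rows), with 0.05 CPM added and the colour capped at 3 on the log2 scale. KO IEC organoid replicate 2 is deepest below WT for Axin2, while Sp5 and Nkd1 are below WT in both KO IEC organoid libraries and above WT in both KO CAG organoid libraries.

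In the KO CAG organoids 5 of the 10 genes changed, and Nkd1 and Sp5 rose most. Sp5 lay at 10.5 and 15.8 CPM in WT and at 32.7 and 28.0 CPM in KO, a 2.30-fold rise (log2 fold change 1.204 ± 0.19 SE, n = 2 against 2, interval 0.78 to 1.63, adjusted p 0.00112 by edgeR). Nkd1 lay at 2.53 and 3.76 CPM in WT (21 and 29 counts) and at 7.65 and 8.94 CPM in KO (55 and 93 counts), a 2.66-fold rise (1.41 ± 0.28 SE, adjusted p 0.00409 by edgeR). Both KO libraries exceeded both WT libraries for each gene. The counting ratio was 2.29 (interval 1.95 to 2.70) for Sp5 and 2.69 (interval 1.94 to 3.79) for Nkd1. With all 16 libraries in 1 fit, which share 1 estimate of the spread, 0 of the 10 were called in this comparison (adjusted p 0.0631 for Sp5 and 0.265 for Nkd1 by edgeR). Calls over all genes are not given for that fit, so this 0 may not be particular to the 10 genes. In the fit of this experiment alone, 18.1% of all 13598 genes tested were called higher and 13.4% lower, beside 2 of 10 and 3 of 10 for these genes.

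The 3 genes that fell in KO CAG organoids were both receptors and the TCF factor, each by less than the rises above. Fzd7 lay at 90.7 and 86.7 CPM in WT and at 64.8 and 72.2 CPM in KO (log2 fold change -0.37 ± 0.09 SE, adjusted p 0.0115 by edgeR). Lgr4 lay at 203 and 191 CPM in WT and at 153 and 166 CPM in KO (-0.31 ± 0.08 SE, adjusted p 0.0203). Tcf7l2 lay at 54.8 and 52.5 CPM in WT and at 46.3 and 40.2 CPM in KO (-0.32 ± 0.11 SE, adjusted p 0.0447). The calls of these 3 depended on single libraries. Without WT replicate 1 none of them passed (adjusted p 0.0781 for Fzd7, 0.192 for Lgr4 and 0.199 for Tcf7l2 by edgeR), and without WT replicate 2 Lgr4 (0.0745) and Tcf7l2 (0.111) did not. Without KO replicate 2 Tcf7l2 did not (0.149), nor did it with DESeq2 (0.210).

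The other feedback regulators and the ligand were not called. Axin2 lay at 230.2 and 227 CPM in WT and at 196 and 222 CPM in KO (log2 fold change -0.13 ± 0.09 SE, interval -0.33 to 0.07, adjusted p 0.295 by edgeR). Both KO libraries were the lower ones, and KO replicate 2 came close to WT. Rnf43 lay at 141 and 151 CPM in WT and at 167 and 174 CPM in KO (0.23, adjusted p 0.0583 by edgeR). Wnt3 lay at 8.67 and 9.98 CPM in WT and at 12.5 and 14.3 CPM in KO (0.53, adjusted p 0.0537 by edgeR). Sox9 lay at 131 and 126 CPM in WT and at 152 and 135 CPM in KO (0.16), and Znrf3 at 31.4 and 28.9 CPM in WT and 27.1 and 30.7 CPM in KO (-0.06). Without KO replicate 1 Rnf43 (0.0310) and Wnt3 (0.0359) passed, and without KO replicate 2 Axin2 (-0.23, 0.0432) and Sox9 (0.23, 0.0275) passed by edgeR.

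KO lay above WT without overlap for 5 of the 10 genes and below for 4, where 35.5% and 34.2% of all genes tested did so, and the median log2 fold change was 0.05. Secretory and absorptive markers moved in the same libraries, where 18.1% of all genes tested were called higher and 13.4% lower. The summed Paneth markers were 4343 to 4759 CPM in WT and 7522 to 7931 CPM in KO with 6 of 7 called higher, goblet markers 4976 to 5196 and 7974 to 8613 CPM with 6 of 6 called higher, enteroendocrine markers 715 to 740.1 and 1629 to 1762 CPM with 7 of 7 called higher, and enterocyte markers 4004 to 4401 and 9309 to 11707 CPM with 7 of 8 called higher. Stem cell markers summed to 2589 to 3100.1 CPM in WT and 2118 to 2492 CPM in KO, with 2 of 4 called lower. Cycling markers summed to 1391 to 1430 CPM in WT and 986 to 1238 CPM in KO, also with 2 of 4 called lower. The part of these marker contents in the values of Sp5, Nkd1, Fzd7, Lgr4 and Tcf7l2 was not tested.

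**Figure D4:**
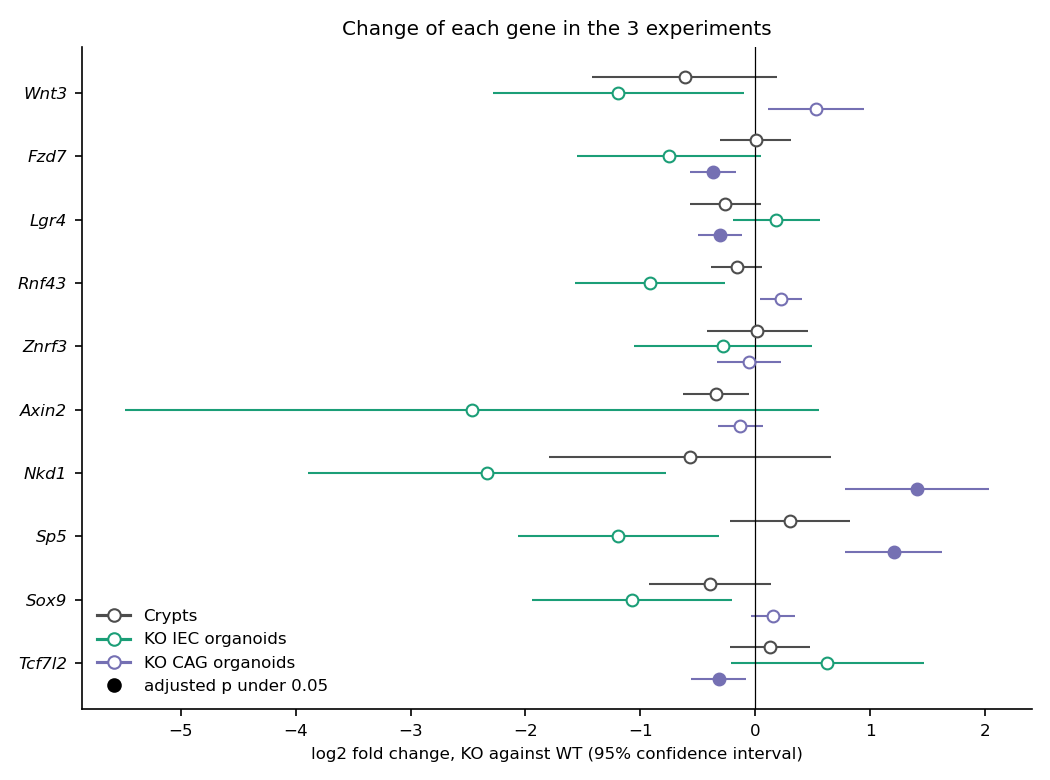
Log2 fold change (KO minus WT) of the 10 genes with its 95% interval in the crypts, KO IEC organoids and KO CAG organoids, with filled symbols at an adjusted p under 0.05 by edgeR. Filled symbols occur in the KO CAG organoids only (Sp5, Nkd1, Fzd7, Lgr4 and Tcf7l2), and the KO IEC organoid intervals are the widest, reaching -5.49 to 0.56 for Axin2.

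The direction of several members was opposite in the 2 organoid models. Rnf43, Nkd1, Sp5, Sox9 and Wnt3 lay below WT in the KO IEC organoids and above WT in the KO CAG organoids, and Lgr4 and Tcf7l2 did the reverse, without overlap in either, which makes 7 of the 10 genes, where 7.94% of the 13136 genes tested in both models did so. The difference in the KO effect was tested as an interaction in 1 fit of all 16 libraries over 15585 genes. Sp5 passed, with a difference of -2.37 ± 0.47 (SE, log2 scale, KO IEC minus KO CAG, adjusted p 0.0461 by edgeR). Rnf43 differed by -1.13 ± 0.23 (adjusted p 0.0606), Nkd1 by -3.70 ± 1.08 (adjusted p 0.207) and Axin2 by -2.33 ± 0.95 (adjusted p 0.386). At an unadjusted p under 0.05 there were 8 of the 10, where 10.9% of all genes were, while 0.385% of all genes passed the adjusted threshold. DESeq2 called Sp5, Rnf43 and Nkd1, and its calls over all genes are not given, since these shares are from edgeR.

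The call for Sp5 is close to the threshold. It was lost with DESeq2 size factors (adjusted p 0.0517 by edgeR), with a replicate block (0.194) and in 11 of 16 fits that left out 1 library each, in which its difference stayed between -2.74 and -2.06 with adjusted p from 0.0247 to 0.304. It held without crypt WT replicate 1, crypt WT replicate 3, crypt KO replicate 1, crypt KO replicate 3 or KO IEC organoid KO replicate 1.

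Between the crypts and the KO IEC organoids, which share the deletion by pVillin-Cre, 0 of the 10 differed by edgeR or DESeq2. At an unadjusted p under 0.05 there were 5, where 6.96% of all genes were, and 0.00642% of all genes passed the adjusted threshold. The difference (crypts minus KO IEC organoids) was 2.14 for Axin2 (adjusted p 0.647), 1.48 for Sp5 (0.443) and 0.75 for Rnf43 (0.436) by edgeR. Between the crypts and the KO CAG organoids 0 of the 10 differed and 2 had an unadjusted p under 0.05, namely Nkd1 (-1.96) and Sp5 (-0.89), where 14.4% of all genes had one and 0.372% passed the adjusted threshold. Fresh tissue and culture cannot be told apart from the experiment in these 2 comparisons, nor the Cre driver and the time of deletion in those with the KO CAG organoids.

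Beside the 10 genes, 99 further genes of the pathway were listed by role, and 59 passed the filter in each experiment. In the crypts 1 of the 59 rose and 2 fell, with a median log2 fold change of -0.02. Over all genes tested 4.3% were called higher and 2.66% lower. Tnks, a poly-ADP-ribose polymerase that destabilises Axin proteins, rose (0.62, adjusted p 0.0431 by edgeR). Lgr5, the stem cell relative of Lgr4, fell from 25.3 to 15.2 mean CPM (-0.74, adjusted p 0.0379), and Ascl2, a stem cell transcription factor under Wnt control, fell from 14.4 to 9.08 mean CPM (-0.67, adjusted p 0.0499). The 10 genes of the list of further targets all had log2 fold changes below 0 (median -0.41, beside -0.01 over all genes tested), of which only Ascl2 was called. In the same libraries the stem cell markers, Lgr5 and Ascl2 among them, summed to 1388 to 2224 CPM in WT and 863 to 1395.5 CPM in KO, and the enterocyte markers to 1945 to 8606 CPM in WT and 7357 to 16397 CPM in KO. The median log2 fold change of these enterocyte markers was 1.57, and 0 of 8 were called. The part of these contents in the values of Lgr5, Ascl2 and the further targets was not tested. These crypt calls did not hold when WT replicate 1, 2 or 3 or KO replicate 2 or 3 was left out, each of which gave 0 calls among the 59. Without WT replicate 4 or KO replicate 1 there were 11 and 8. Calls over all genes are not given for these fits, so the shifts may not be particular to the pathway genes. A fit with the mitochondrial RNA class of each library as a term also gave 0. Over all genes that fit called only 2, beside 934 without the term, so its 0 is not particular to the pathway genes.

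In the KO IEC organoids 0 of the 59 were called by edgeR. At an unadjusted p under 0.05, 6 were lower and 7 higher by edgeR, where 2.07% of all genes were lower and 2.6% higher. DESeq2 called 3 of the 59, and its calls over all genes are not given. Lgr5 lay at 190 to 227 CPM in WT and 70.0 to 77.8 CPM in KO (log2 fold change -1.50), and Ascl2 at 26.5 CPM in both WT libraries and 1.49 to 2.89 CPM in KO (-3.59). All 10 further targets were below 0 again (median -0.93), while the median over the 59 was -0.08.

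In the KO CAG organoids 7 of the 59 rose and 9 fell, where 18.1% of all genes rose and 13.4% fell, with a median of 0.02. In the fit of all 16 libraries 1 of the 59 was called, and calls over all genes are not given for that fit. Lgr5 fell from 509 to 214 mean CPM (log2 fold change -1.25, adjusted p 9.27e-05 by edgeR), and the receptor gene Fzd5 (-0.58) and the secreted inhibitor gene Sfrp5 (-1.21) fell with it. Of the further targets, Tnfrsf19 rose from 3.65 to 18.1 mean CPM (2.32, adjusted p 0.000154 by edgeR), Cd44 by 0.81 and Ccnd1, a cyclin, by 0.66 on the log2 scale. Myc (-0.34), Prom1 (-0.57) and Slc12a2 (-0.40) fell. Among nuclear effectors, Ctnnb1, which encodes β-catenin, rose (0.28) together with the co-repressor genes Tle1 (0.40) and Tle4 (0.42), while Bcl9 (-0.43), Tle3 (-0.30) and Crebbp (-0.36) fell, and the ubiquitin ligase gene Fbxw11 rose (0.29). Ascl2 did not pass there (0.32, adjusted p 0.161).

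**Figure D5:**
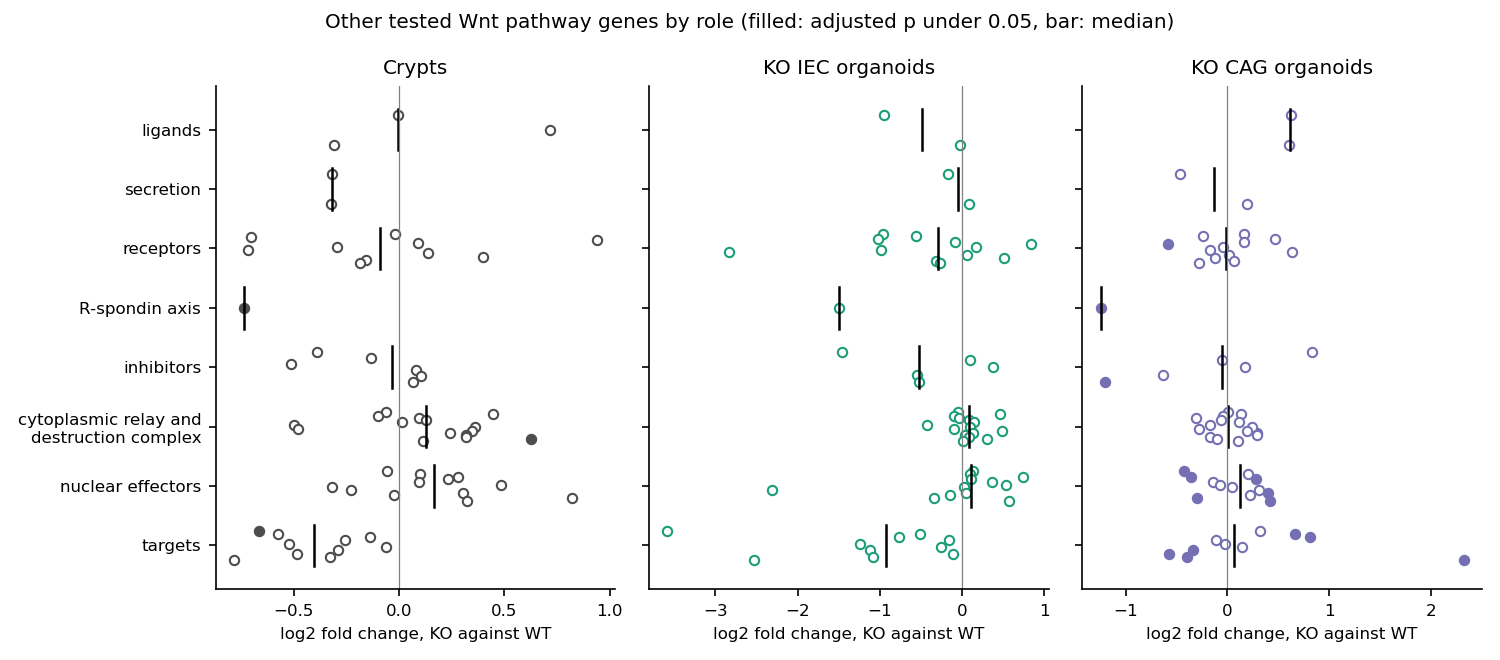
Log2 fold change (KO minus WT) of the other tested Wnt pathway genes by role in the 3 experiments, 1 point per gene, with filled points at an adjusted p under 0.05 by edgeR. The 10 further targets lie below 0 in the crypts and in the KO IEC organoids, and on both sides of 0 in the KO CAG organoids.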

How the data were processed

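RNA was extracted from crypts and organoids, and libraries were sequenced on an Illumina HiSeq platform. The authors deposited read counts of each gene as raw whole numbers, in 1 table per experiment. The submitters' processing notes name HISAT2 2.0.5 and featureCounts 1.5.0-p3, while build, annotation and strand use are not given in the sources used here. The gene positions equal those of GENCODE M21 (GRCm38) for 94.9% to 98.2% of the genes. Groups and replicate numbers were taken from the labels. Each experiment was fitted by itself in R 4.3.3 with edgeR 4.0.16 (filterByExpr, TMM factors, glmQLFit and glmQLFTest), with Benjamini-Hochberg adjustment over all genes tested. Standard errors follow from the log2 fold change and its F statistic. Differences between experiments were tested as interactions in 1 fit. The exact permutation test used log2(CPM + 0.5). A floor of 3 counts equals 0.178 to 0.408 CPM, and this floor and the counting intervals cover counting error only. TPM was computed from the counts and the deposited gene lengths. DESeq2 1.42.0, other size factors, other filters and fits leaving out each library were alternatives, and the fit was checked on simulated counts. The genes named are the 10 members and, of the other pathway genes, up to 3 called genes per role and direction, with Lgr5 and Ascl2. The members and lists were chosen with earlier results of these data known.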

Additional observations from a re-analysis of the deposited data

Results flagged for a closer look

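The change of Sp5 in KO against WT differed between the organoid models by -2.37 on the log2 scale (KO IEC minus KO CAG, SE 0.47, adjusted p 0.0461 by edgeR in 1 fit of 16 libraries). Sp5 was below both WT libraries in both KO IEC libraries and above both WT libraries in both KO CAG libraries. The call was lost with DESeq2 size factors (adjusted p 0.0517 by edgeR), with a replicate block (0.194) and in 11 of 16 fits without 1 library. The summed stem cell markers were lower in KO than in WT in both models without overlap, and the summed Paneth markers were lower in KO IEC (1465 and 1962 CPM, WT 2062 and 3584 CPM) and higher in KO CAG organoids (7522 and 7931 CPM, WT 4343 and 4759 CPM). The part of these contents in the difference was not tested. Whether the WT organoids of the KO CAG experiment carried CreERT2 or received 4-OHT is not stated. An effect of either therefore cannot be told apart from that of the deletion there. In the crypts none of the 20 groups of 4 libraries, 2 for each gene, held a library that stood apart by Dixon's criterion.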

How the results depend on the processing

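The log2 fold changes of the 10 genes were recomputed under each alternative. In the crypts 167 of 179 kept their direction and their side of the threshold, in the KO IEC organoids 109 of 119 and in the KO CAG organoids 98 of 120. The signs that turned belonged to Znrf3 and Fzd7, the values of which lie near 0. Crypt Znrf3 was -0.058 with library size alone and ran from -0.18 (without KO replicate 1) to 0.13 (without KO replicate 4) with 1 library left out, below 0 also without WT replicate 1 (-0.032) and WT replicate 4 (-0.013). Crypt Fzd7 was -0.076 with library size alone, -0.014 without a filter and -0.047 with the class of mitochondrial RNA as covariate, and ran from -0.13 (without KO replicate 1) to 0.090 (without KO replicate 4), below 0 also without WT replicate 3 (-0.017) and KO replicate 2 (-0.0052). With 1 library left out Znrf3 ran from -0.65 to 0.017 in the KO IEC organoids and from -0.16 to 0.0044 in the KO CAG organoids.

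The number of members called in the KO IEC organoids was 3 without a low-count filter. Over all genes 223 of 24322 were called in that fit, beside 1 of 13938 with the filter. In the fit without a filter the prior degrees of freedom were infinite, so that a gene's own spread had no weight. In the KO CAG organoids the number was 2 with a 2-fold minimum, 0 with all 16 libraries in 1 fit, and ran from 2 to 7 with 1 library left out. Sp5 and Nkd1 were called there in 11 of 12 alternatives each, all but the fit of all 16 libraries (adjusted p by edgeR 0.0631 and 0.265), with log2 fold changes of 0.92 to 1.52 for Sp5 and 1.13 to 1.71 for Nkd1. For the difference between KO IEC and KO CAG organoids the number of members called was 0 with DESeq2 size factors, 3 with DESeq2 and 0 to 4 with 1 library left out, and for that between crypts and KO IEC organoids 0 to 2. Among the 59 other pathway genes the crypt count was 10 with DESeq2, 5 without a filter, 7 with at least 10 counts per library and 0 with a 2-fold minimum, and the KO CAG count was 3 with a 2-fold minimum and 1 with all 16 libraries. The cause of these shifts was not tested. Calls over all genes are not given for DESeq2, for the fit of all 16 libraries or for fits with 1 library left out. The counts from those fits therefore cannot be set beside a share of all genes.

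WT and KO libraries share replicate numbers, but the correlations of same-numbered crypt libraries ran from -0.395 to 0.434, and there are only 2 pairs in each organoid experiment (0.342 and 0.0669), so the numbers were not taken as pairs. With a replicate block the members called numbered 0 in the crypts, 0 in the KO IEC organoids and 6 in the KO CAG organoids, and 0 for the difference between the organoid models. Under this block crypt Znrf3 was -0.0078, crypt Fzd7 was -0.014, and the calls over all genes were 4 in the crypts and 4932 in the KO CAG organoids.

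Nkd1 had the fewest counts of the 10 genes, under 10 in at least 1 KO library of the crypts and of the KO IEC organoids, so that it gave no value under the minimum of 10 counts per library.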
